A study of Homo sapiens with 12 samples.

Results

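The genes described here are SLC15A3, HSH2D, CACNA1I, TRANK1, RASGRP3 and MAP2, which are 6 of the 60669 gene identifiers in the count table. They were picked by symbol as genes with higher counts after interferon beta (IFNB) in both cell lines of the study, outside the usual antiviral effector families. The IFNB values that chose them are therefore given as a description, with no test. All 6 passed the filter on low counts, which kept 16393 genes. The comparison between guides was not part of the choice and was tested. SLC15A3, HSH2D and CACNA1I had under 10 counts in every untreated library and passed the filter through the IFNB libraries alone.

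Polyadenylated RNA was sequenced from HT1080, a human fibrosarcoma cell line, in 12 libraries. All cells stably expressed dCas9, a Cas9 that binds DNA without cutting it and is used in CRISPR interference, and were kept under blasticidin and puromycin selection. They carried a guide RNA either against an LTR8B element, a retroviral long terminal repeat in the first intron of SP140, or against GFP as a control. The groups were LTR8B cells given IFNB at 10 U/mL for 4 h (n = 4), GFP cells given the same IFNB (n = 2), untreated LTR8B cells (n = 4) and untreated GFP cells (n = 2). The labels do not state whether either line came from a single clone or whether the replicates came from separate cultures; the p-values therefore speak to the spread between these libraries, which may be technical.

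Type I interferons bind the receptor pair IFNAR1 and IFNAR2, whose kinases JAK1 and TYK2 phosphorylate transcription factors of the STAT family. With IRF9 these form ISGF3, a transcription factor that binds repeats of the letters GAAA in promoters, the interferon-stimulated response element. The classical targets are antiviral effectors such as the IFIT, OAS and MX genes, but many induced genes have other known roles. SLC15A3 is a proton-coupled transporter of histidine and small peptides in endosomes and lysosomes, and HSH2D is an SH2 domain adaptor studied in lymphocytes. TRANK1 is a large protein with tetratricopeptide and ankyrin repeats and a helicase-like region, and RASGRP3 is a diacylglycerol-regulated exchange factor that loads RAS and RAP GTPases with GTP. CACNA1I is the pore-forming subunit of a low-voltage-activated (T-type) calcium channel, and MAP2 is a microtubule-binding protein best known from neuronal dendrites.

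On hg38 with GENCODE release 29, SLC15A3 (ENSG00000110446.11) lay at chr11:60937084-60952530 on the minus strand and HSH2D (ENSG00000196684.12) at chr19:16134028-16158575 on the plus strand. CACNA1I (ENSG00000100346.18) lay at chr22:39570753-39689737, plus strand, and TRANK1 (ENSG00000168016.14) at chr3:36826820-36945098, minus strand. RASGRP3 (ENSG00000152689.18) at chr2:33436324-33564750 and MAP2 (ENSG00000078018.20) at chr2:209424058-209734118 were both on the plus strand. The merged exons ran from 2115 bases for SLC15A3 to 10717 bases for CACNA1I, so the levels of these genes are set against each other below only per kilobase.

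RefSeq promoter windows (GRCh38.p14, 250 bases before to 50 after an annotated start) matched 4 of the 6 genes, with 9 windows in all: 4 for RASGRP3, 3 for MAP2, and 1 each for TRANK1 and CACNA1I. The letters GAAA, any 2 bases, then GAAA, the core of the interferon-stimulated response element, were searched on both strands. They occurred in 0 of the 9 windows, in 20 of 29 windows of antiviral effector genes (69.0%) and in 1255 of all 35116 windows (3.57%). TTCNNNGAA, the letters of the gamma-activated sequence, occurred in 0 of the 9, 5 of the 29 (17.2%) and 7.66% of all windows. The TRANK1 and CACNA1I windows before the start are shown on the strand of the gene because these genes have a single window each, with single copies of GAAA (or TTTC, the same letters on the other strand) in capitals. A stretch before the start of IFIT3, an effector gene, is shown for contrast, with its match to the motif on the other strand in capitals; the match begins 122 bases before the start. TRANK1 spans chr3:36945055-36945304 on the minus strand, CACNA1I chr22:39570503-39570752 on the plus strand and IFIT3 chr10:89327850-89327909 on the plus strand.
TRANK1: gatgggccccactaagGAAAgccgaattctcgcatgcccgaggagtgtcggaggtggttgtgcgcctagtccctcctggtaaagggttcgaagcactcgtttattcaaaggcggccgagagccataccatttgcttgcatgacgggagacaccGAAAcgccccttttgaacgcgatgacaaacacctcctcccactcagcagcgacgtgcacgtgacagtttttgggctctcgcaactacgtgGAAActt
CACNA1I: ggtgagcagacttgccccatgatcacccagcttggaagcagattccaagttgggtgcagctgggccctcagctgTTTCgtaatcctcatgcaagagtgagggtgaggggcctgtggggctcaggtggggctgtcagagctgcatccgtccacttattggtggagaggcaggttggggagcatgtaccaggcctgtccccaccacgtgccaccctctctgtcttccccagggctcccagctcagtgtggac
IFIT3: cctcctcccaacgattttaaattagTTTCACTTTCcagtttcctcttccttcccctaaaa
The TRANK1 stretch held 3 single copies and the CACNA1I stretch 1, in neither case as the spaced pair that IFIT3 has. No match says only that these letters are not in these windows. The bases after the annotated start of CACNA1I begin with ATG, the letters of a start codon. Whether transcription begins at that position was not tested, so the CACNA1I stretch may not be its promoter.

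Total counts ran from 12404270 to 28801579 per library. SP140, the gene that holds the targeted element, was at 0.515 to 1.84 CPM in the 8 LTR8B libraries, against 29.8 to 32.0 CPM in the 4 GFP libraries, where CPM is TMM-scaled counts per 1000000. Its log2 fold change, LTR8B over GFP, was -4.67 with IFNB (SE 0.215, edgeR quasi-likelihood adjusted p = 3.33e-09) and -4.55 in untreated cells (SE 0.204, adjusted p = 3.18e-09). A count of 0 in a library allows up to 3 counts, or 0.1 to 0.244 CPM; such floors and the counting intervals below cover counting error only. These are bulk libraries, in which more RNA per cell and more cells with the RNA cannot be told apart.

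SLC15A3, the peptide and histidine transporter, had the highest ratio of IFNB to untreated counts of the 6 genes in both lines. It had 12.7, 10.3, 11.6 and 10.5 CPM in LTR8B IFNB cells, against 0.184, 0.361, 0.134 and 0.154 CPM in untreated LTR8B cells. In GFP cells it had 13.7 and 11.1 CPM with IFNB, against 0.227 and 0.0942 CPM untreated. The untreated values rested on 2 to 7 counts a library and those with IFNB on 143 to 287, and no IFNB library overlapped an untreated one. Over the summed counts the ratio was 56.4 in LTR8B cells (exact 95% counting interval 35.5 to 95.7) and 74.1 in GFP cells (37.3 to 173). The fitted log2 fold change was 5.78 (SE 0.217) in LTR8B cells and 6.16 (SE 0.308) in GFP cells, rank 25 of the 16393 genes by fold in each line.

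HSH2D, the SH2 adaptor, was likewise close to the floor without IFNB. It had 8.47, 8.31, 9.11 and 7.42 CPM in LTR8B IFNB cells, against 0.138, 0.206, 0.234 and 0.0514 CPM in untreated LTR8B cells. GFP cells had 11.2 and 10.9 CPM with IFNB, against 0.227 and 0.188 CPM untreated. In both lines all IFNB libraries lay above all untreated ones, and with IFNB the GFP libraries were the higher. The summed counts gave a ratio of 49.8 in LTR8B cells (interval 29.9 to 89.5) and 52.6 in GFP cells (28.3 to 110). The fitted log2 fold change was 5.60 (SE 0.214) and ranked 26 in LTR8B cells, and was 5.68 (SE 0.280) and ranked 34 in GFP cells.

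CACNA1I, the calcium channel subunit, had the lowest level of the 6 genes per kilobase, with and without IFNB. It had 3.21, 3.55, 3.74 and 3.34 CPM in LTR8B IFNB cells, against 0.138, 0.0515, 0.067 and 0.0514 CPM in untreated LTR8B cells. In GFP cells it had 3.96 and 3.23 CPM with IFNB, against 0.0378 and 0.188 CPM untreated. Untreated libraries held 1 to 4 counts each, so the untreated level could not be told from the floor at this depth. The ratio of summed counts was 44.4 in LTR8B cells (interval 21.2 to 112) and 34.4 in GFP cells (14.4 to 107). Its log2 fold change of 5.01 (SE 0.425) in GFP cells ran from 4.21 to 6.36 when each library was left out in turn, against 5.25 to 5.75 around 5.37 (SE 0.323) in LTR8B cells.

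TRANK1 had the highest level of the 6 genes per kilobase with IFNB. LTR8B IFNB cells had 129, 148, 157 and 114 CPM, against 8.94, 9.73, 10.1 and 9.62 CPM in untreated LTR8B cells. GFP cells had 129 and 128 CPM with IFNB, against 8.28 and 9.52 CPM untreated. With 187 counts or more in every library, the ratio was narrow: 14.0 in LTR8B cells (interval 13.1 to 15) and 14.6 in GFP cells (13.2 to 16.1). The 4 LTR8B IFNB libraries varied more than counting gives, with a coefficient of variation of 14.2% against 2.02% from counting alone. The log2 fold change was 3.83 (SE 0.0982) in LTR8B cells and 3.86 (SE 0.139) in GFP cells.

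RASGRP3, the RAS and RAP exchange factor, was clearly detected without IFNB, at 14 to 35 counts a library. It had 13.3, 13.5, 15.5 and 12.9 CPM in LTR8B IFNB cells, against 1.29, 1.24, 1.07 and 0.72 CPM in untreated LTR8B cells. In GFP cells it had 13.9 and 13.0 CPM with IFNB, against 1.32 and 1.13 CPM untreated. The ratio was 12.6 in LTR8B cells (interval 10.2 to 15.7) and 10.9 in GFP cells (8.29 to 14.5), and the log2 fold change was 3.66 (SE 0.143) in LTR8B cells and 3.44 (SE 0.195) in GFP cells.

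MAP2 stood apart from the other 5 by its size of change, and the words "strongly raised" do not describe it. It had 19.0, 22.1, 22.2 and 17.4 CPM in LTR8B IFNB cells, against 9.59, 10.4, 10.5 and 8.85 CPM in untreated LTR8B cells. GFP cells had 22.5 and 21.8 CPM with IFNB, against 9.22 and 9.0 CPM untreated. The IFNB libraries lay above the untreated ones in both lines, by a ratio of 2.03 in LTR8B cells (interval 1.87 to 2.21) and 2.43 in GFP cells (2.16 to 2.73). By fold it ranked 301 in LTR8B cells and 334 in GFP cells, where RASGRP3, the next above it among the 6, ranked 60 and 83.

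**Figure D1:**
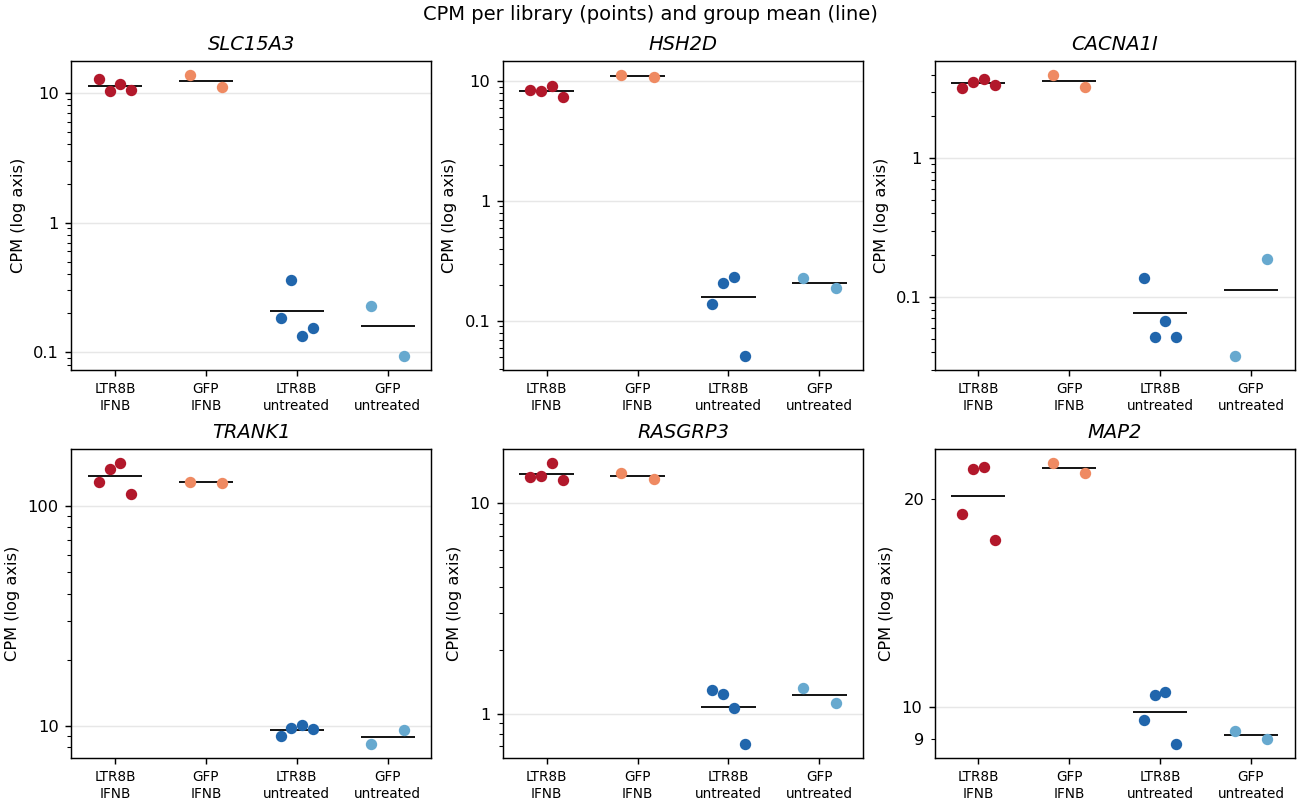
CPM of each gene (log axis, its own range in each panel) in the 12 libraries, by guide and treatment; points are libraries and lines are group means. IFNB libraries lie above untreated ones in all 6 panels, by the least in MAP2, and HSH2D is the only panel where the 4 LTR8B IFNB points lie below both GFP IFNB points.

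Within LTR8B IFNB cells, replicate 3, the library with the lowest total, was above the group mean of log2(CPM + 0.5) for 6 of the 6 genes, and replicate 4 for 0 of 6. The antiviral effectors moved the same way in these libraries, with 24 of 27 above their group mean in replicate 3 and 8 of 27 in replicate 4. The median over all tested genes deviated there by 0.0022 and -0.00047. The other LTR8B IFNB libraries did not show this: 23 of 27 effectors but 2 of the 6 genes were above in replicate 1. In replicate 2 these were 9 of 27 effectors and 4 of the 6 genes. The part of these libraries in the spread was not tested.

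**Figure D2:**
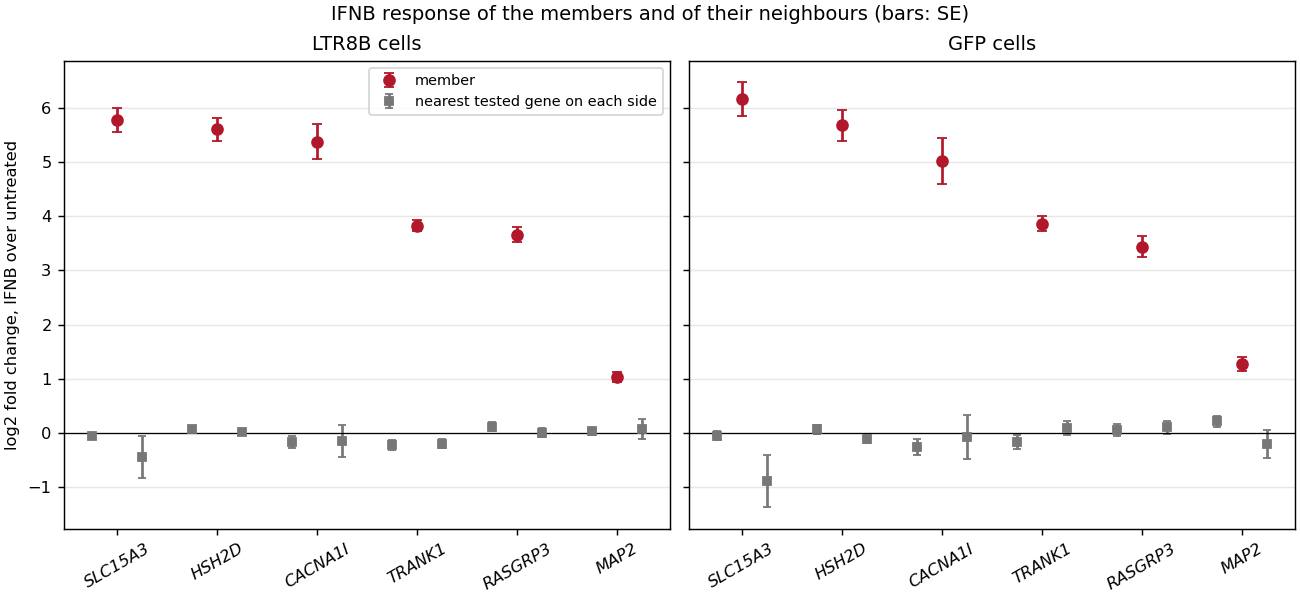
Log2 fold change, IFNB over untreated, of the 6 genes (circles) and of the nearest tested gene on each side (squares) in LTR8B cells (left) and GFP cells (right); bars are SE. The neighbours lie between -0.44 and 0.11 in LTR8B cells and between -0.89 and 0.22 in GFP cells.

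The genes beside these 6 on the chromosome were read in the same fit. Of the 12 nearest tested neighbours, 0 passed the threshold in either line, where 4.5% of all genes passed in LTR8B cells and 3.2% in GFP cells, either direction (edgeR). For 12 genes a count of 0 is near these shares, so it says little about the neighbours. Their log2 fold changes ran from -0.44 to 0.11 in LTR8B cells and from -0.89 to 0.22 in GFP cells. The lowest of each was CD5, a T cell surface protein, which averaged only 0.3 to 0.689 CPM by group. Not all neighbours were close: the gap ran up to 1070 kb, for PIKFYVE. Beside MAP2, PIKFYVE, a lipid kinase, was at 0.03 (SE 0.0701) in LTR8B cells and 0.22 (SE 0.0983) in GFP cells. UNC80, a subunit of a sodium leak channel, was at 0.07 (SE 0.183) in LTR8B cells and -0.21 (SE 0.256) in GFP cells. Exons of SLC15A3 overlapped those of TMEM132A on the other strand, and exons of HSH2D overlapped those of RAB8A, a small GTPase of vesicle traffic, on the same strand. Reads in the shared parts could not be assigned with certainty. For SLC15A3 this is because the labels do not state whether counting used strand, and for HSH2D strand could not separate the 2 genes. TMEM132A averaged 65.9 CPM in LTR8B IFNB cells and 68.3 CPM in untreated LTR8B cells, and RAB8A 71.8 CPM in LTR8B IFNB cells and 68.0 CPM in untreated LTR8B cells. Neither passed the threshold with IFNB, with log2 fold changes of -0.05 (SE 0.0583, adjusted p = 0.842) and 0.08 (SE 0.0541, adjusted p = 0.654) in LTR8B cells.

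Per kilobase of merged exon the 6 genes were low beside the antiviral effectors. Their median level was 3.04 CPM per kb in LTR8B IFNB cells (range 0.323 to 12.8) and 3.58 CPM per kb in GFP IFNB cells (0.335 to 12.1). The 27 effectors had a median of 48.6 CPM per kb in LTR8B IFNB cells (2.1 to 636) and 55.9 CPM per kb in GFP IFNB cells (2.4 to 707). In LTR8B IFNB cells TRANK1 was at 12.8 CPM per kb, SLC15A3 at 5.34, HSH2D at 3.51, RASGRP3 at 2.58, MAP2 at 1.97 and CACNA1I at 0.323. Without IFNB the order differed: MAP2 had 0.958 and TRANK1 0.902 CPM per kb in untreated LTR8B cells, followed by RASGRP3 at 0.201, SLC15A3 at 0.0985, HSH2D at 0.0664 and CACNA1I at 0.00719.

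**Figure D3:**
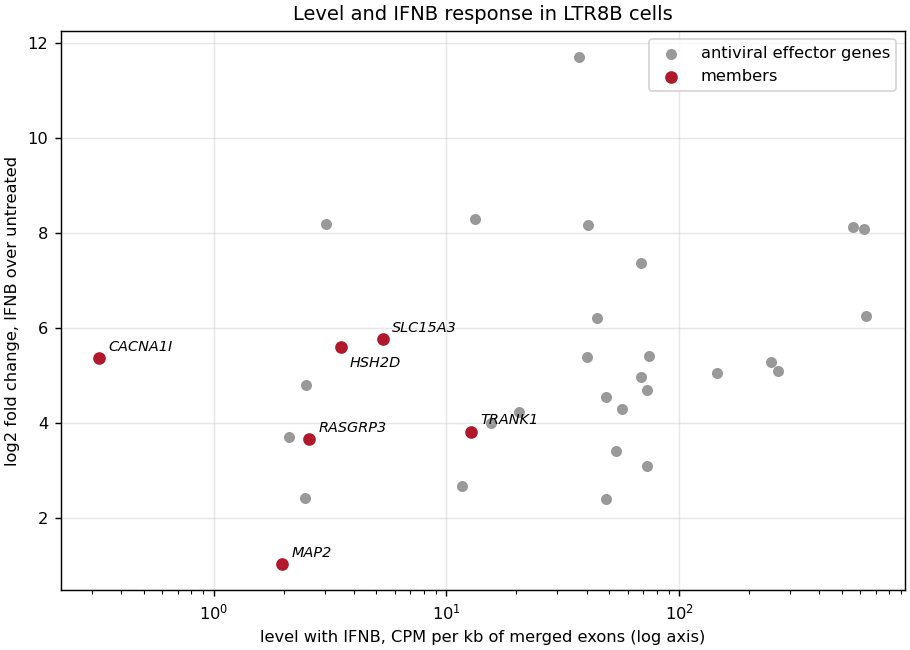
Log2 fold change, IFNB over untreated, in LTR8B cells against the level in LTR8B IFNB cells in CPM per kb of merged exons (log axis); red points are the 6 genes and grey points 27 antiviral effector genes. The 6 genes lie between 0.323 and 12.8 CPM per kb, and CACNA1I (0.323) and MAP2 (1.97) lie left of every effector.

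In LTR8B against GFP cells with IFNB, where all 6 genes were well counted, 0 of 6 passed the threshold, and 0.354% of all tested genes did (edgeR). Untreated and averaged over both treatments, 0 of the 6 passed as well, beside 0.36% and 2.14% of all tested genes, but the counts of SLC15A3, HSH2D and CACNA1I in untreated cells were too low for this to bear on them. At an unadjusted p of 0.05 HSH2D with IFNB was the only one of the 6 to pass in any of the guide contrasts. Of the 16393 tested genes 1554 passed at that level with IFNB, 1840 untreated and 2593 in the average. With IFNB, HSH2D averaged 8.33 ± 0.696 CPM in LTR8B cells (SD, n = 4) and 11.0 ± 0.188 CPM in GFP cells (SD, n = 2). Its log2 fold change, LTR8B over GFP, was -0.41 (SE 0.151, edgeR adjusted p = 0.397). The 4 LTR8B libraries were all below both GFP libraries, as were those of 9.43% of all tested genes. Counting either direction, 1 of the 6 genes had no overlap between guides with IFNB, against 19% of all tested genes, and 0 of 6 untreated, against 19.6%. In untreated cells HSH2D averaged 0.158 ± 0.0814 CPM in LTR8B cells and 0.208 ± 0.0271 CPM in GFP cells, a log2 fold change of -0.33 (SE 0.460, adjusted p = 0.864) that rests on 15 counts over the LTR8B libraries and 10 over the GFP libraries.

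With IFNB the fitted guide differences of the other 5 genes were smaller than that of HSH2D. SLC15A3 averaged 11.3 ± 1.07 CPM in LTR8B IFNB cells and 12.4 ± 1.80 CPM in GFP IFNB cells, a log2 fold change of -0.14 (SE 0.156, adjusted p = 0.845). TRANK1 averaged 137 ± 19.4 CPM in LTR8B IFNB cells and 129 ± 0.437 CPM in GFP IFNB cells, at 0.09 (SE 0.0999, adjusted p = 0.847). MAP2 averaged 20.2 ± 2.37 CPM in LTR8B IFNB cells and 22.1 ± 0.478 CPM in GFP IFNB cells, at -0.13 (SE 0.108, adjusted p = 0.746). RASGRP3 was at 0.04 (SE 0.133, adjusted p = 0.958) and CACNA1I at -0.06 (SE 0.237, adjusted p = 0.961). In untreated cells TRANK1 was at 0.12 (SE 0.133, adjusted p = 0.767) and MAP2 at 0.11 (SE 0.119, adjusted p = 0.757), both well counted. SLC15A3 (0.25, SE 0.522), CACNA1I (-0.42, SE 0.657) and RASGRP3 (-0.19, SE 0.222) had wider errors there, and the signs for SLC15A3 and CACNA1I turned when single libraries were left out.

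**Figure D4:**
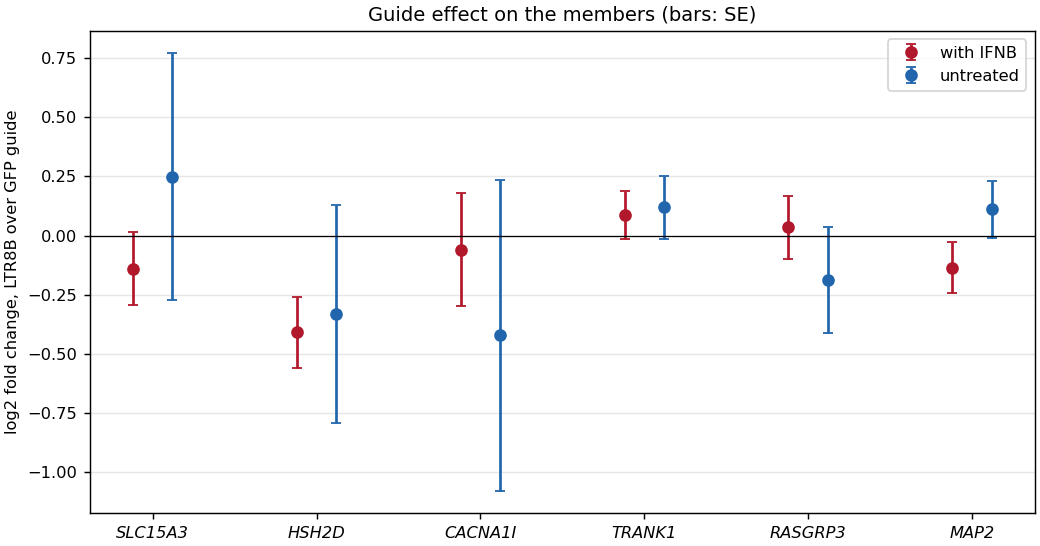
Log2 fold change, LTR8B over GFP guide, for each of the 6 genes with IFNB (red) and untreated (blue), with SE bars from the edgeR model. The errors are widest for SLC15A3, HSH2D and CACNA1I in untreated cells, and HSH2D with IFNB (-0.41) lies farthest from 0 among the IFNB values.

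The difference of the IFNB responses between lines is built from the values that chose the genes, which had to be higher with IFNB in both lines, so it is given for its size and error. The difference of log2 fold changes, LTR8B minus GFP, was -0.39 for SLC15A3 (SE 0.548), -0.08 for HSH2D (SE 0.571), 0.36 for CACNA1I (SE 0.686), -0.03 for TRANK1 (SE 0.166), 0.22 for RASGRP3 (SE 0.259) and -0.25 for MAP2 (SE 0.161). Of all 16393 genes 0 passed (0%) with edgeR, while 489 had an unadjusted p under 0.05. With DESeq2 and with limma-voom 0 passed, with no filter on low counts 13 and with a replicate block 4. The error was smallest for MAP2 and TRANK1 and largest for the 3 genes near the floor without IFNB.

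Families and partners of these genes were then examined from lists drawn up by function, counting those past the threshold with IFNB beside the 4.01% of all genes that were higher in LTR8B cells and 3.06% in GFP cells. In each of these lists 0 genes were lower past the threshold, where 0.482% of all genes were in LTR8B cells and 0.134% in GFP cells. Around SLC15A3, 6 of 15 listed genes of peptide transport and endosomal sensing were tested, of which 2 were higher in LTR8B cells and 1 in GFP cells, with a list median log2 fold change of 0.21 in LTR8B cells and 0.27 in GFP cells. NOD1, a cytosolic sensor of bacterial peptidoglycan fragments, rose by 1.09 in LTR8B cells (SE 0.112, adjusted p = 2.18e-06) and 1.04 in GFP cells (SE 0.152, adjusted p = 2.36e-04). UNC93B1, which escorts Toll-like receptors to endosomes, rose by 0.46 in LTR8B cells (SE 0.105, adjusted p = 0.0126) and was at 0.43 in GFP cells (SE 0.142, adjusted p = 0.168). The LTR8B call of UNC93B1 was lost without LTR8B IFNB replicate 2 or 3 or without untreated LTR8B replicate 1, with an adjusted p up to 0.0627. SLC15A4, the closest relative of SLC15A3 that was tested, was at 0.08 in each line (adjusted p = 0.776 in LTR8B cells and 0.823 in GFP cells).

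Around TRANK1, 10 of 11 genes listed as superfamily 1 helicases, or in the case of NFX1, a zinc finger factor, beside them, were tested, and 3 were higher in each line, with a list median of 0.03 in LTR8B cells and 0.12 in GFP cells. These were HELZ2, an interferon-responsive nuclear co-activator and helicase (4.27 in LTR8B cells, SE 0.110, and 4.23 in GFP cells, SE 0.155), ZNFX1, a sensor of double-stranded RNA (2.11 in LTR8B cells, SE 0.0594, and 2.13 in GFP cells, SE 0.0841), and MOV10, an RNA helicase that restricts retroelements (0.67 in LTR8B cells, SE 0.0673, and 0.58 in GFP cells, SE 0.0942). The largest edgeR adjusted p among these 6 values was 7.16e-04.

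Few genes of the other families passed. For lists of 8 to 16 tested genes, counts of 0 or 1 are near the shares of all genes, so they say little about these families. Of 10 tested SH2 adaptors (20 listed) 0 passed in either line, with medians of -0.15 in LTR8B cells and -0.13 in GFP cells. The same held for 8 tested calcium channel subunits (17 listed, median -0.00062 in LTR8B cells and 0.05 in GFP cells) and for 14 tested microtubule-binding proteins (19 listed, median -0.06 in LTR8B cells and -0.08 in GFP cells). CACNA1G and CACNA1H, the other T-type channel subunits, were below the filter in these cells. Among 16 tested RAS and RAP GTPases and exchange factors (20 listed) 0 passed in LTR8B cells and 1 in GFP cells, with medians of 0.05 in LTR8B cells and 0.09 in GFP cells. That gene, RRAS2, a RAS-related GTPase, was at 0.19 in LTR8B cells (SE 0.0600, adjusted p = 0.104) and 0.35 in GFP cells (SE 0.0845, adjusted p = 0.0267). Its GFP call was lost without any single one of the 4 GFP libraries, with an adjusted p up to 0.291.

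Of the genes that carry the interferon signal, IRF9, the DNA-binding subunit of ISGF3, rose by 4.55 in LTR8B cells (SE 0.102, adjusted p = 6.23e-16) and 4.86 in GFP cells (SE 0.145, adjusted p = 8.29e-14). STAT2, another ISGF3 subunit, rose by 2.28 in LTR8B cells (SE 0.0687, adjusted p = 4.83e-14) and 2.31 in GFP cells (SE 0.0969, adjusted p = 1.01e-11). IFNAR2 was at 0.47 in LTR8B cells (SE 0.0859, adjusted p = 0.00182) and 0.27 in GFP cells (SE 0.122, adjusted p = 0.411). Of the 27 antiviral effectors tested (28 listed), 27 were higher in each line, with medians of 5.06 in LTR8B cells and 5.22 in GFP cells, beside -0.015 in LTR8B cells and -0.0059 in GFP cells over all genes. SLC15A3, HSH2D and, in LTR8B cells, CACNA1I lay above the effector median and TRANK1, RASGRP3 and MAP2 below it.

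Between guides, 0 genes of these lists passed with IFNB or untreated, and 1 passed in the average over treatments. MAP1B, from the list of microtubule-binding proteins, was higher in LTR8B than in GFP cells by 0.35 (SE 0.0644, edgeR adjusted p = 0.00669), where 1.15% of all genes were higher. The call was lost without untreated GFP replicate 2. Among the 12 neighbours, TMEM132A fell by 0.22 in LTR8B cells in the same average (SE 0.0496, adjusted p = 0.0246), where 0.994% of all genes were lower. Leaving out GFP IFNB replicate 1 or 2, untreated GFP replicate 2, LTR8B IFNB replicate 2 or untreated LTR8B replicate 1 ended that call, with an adjusted p up to 0.245.

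HSH2D is named for blood cells, and MAP2 and CACNA1I are best known from neurons, so markers of these cell types were read in the same libraries. Of 13 leukocyte markers 11 averaged under 1 CPM in every group, and PTPRC, which marks all leukocytes, averaged 0.0328 CPM or less in each group. The summed level of the list was 121 to 142 CPM in LTR8B IFNB cells, 126 to 133 in GFP IFNB cells, 98.0 to 116 in untreated LTR8B cells and 106 to 115 in untreated GFP cells. Most of it was CD68, a lysosomal protein, which rose by 0.30 with IFNB in LTR8B cells (SE 0.0675, adjusted p = 0.0124; up to 0.065 without LTR8B IFNB replicate 3 or untreated LTR8B replicate 1) and was at 0.27 in GFP cells (adjusted p = 0.217). Of 13 neuron markers 10 or 11 averaged under 1 CPM, NEFM was at 0 in all 12 libraries, and most of the summed level was TUBB3, with 130 CPM in LTR8B IFNB cells, 122 CPM in GFP IFNB cells, 106 CPM in untreated LTR8B cells and 114 CPM in untreated GFP cells. TUBB3, a tubulin, did not pass with IFNB (0.29 in LTR8B cells, adjusted p = 0.0909). SNAP25 averaged 2.23 CPM in LTR8B IFNB cells, 2.78 in GFP IFNB cells, 2.0 in untreated LTR8B cells and 3.06 in untreated GFP cells. SYP averaged 0.879, 1.0, 1.02 and 0.873 CPM in these groups. Of 10 mesenchymal markers 8 averaged 1 CPM or more, with VIM at 3550 CPM in LTR8B IFNB cells and 3260 CPM in GFP IFNB cells; COL1A2 and THY1 were under 1 CPM. Of 8 epithelial markers 6 averaged under 1 CPM in every group, and the others were the keratins KRT8 (269 CPM in LTR8B IFNB cells, 277 in GFP IFNB cells, 244 in untreated LTR8B cells and 284 in untreated GFP cells) and KRT18 (143, 131, 138 and 148 CPM in these groups). In the guide average CSF1R, a macrophage receptor, fell by 0.57 in LTR8B cells (SE 0.0992, adjusted p = 0.00486; 0.0697 without untreated GFP replicate 2), and the matrix genes COL1A1 (fell by 0.64, adjusted p = 0.0492) and SPARC (fell by 0.22, adjusted p = 0.0289) were the other marker calls. The COL1A1 call was lost with each of the 12 libraries left out, and that of SPARC without either GFP IFNB library, untreated GFP replicate 2, LTR8B IFNB replicate 2 or 4 or untreated LTR8B replicate 4. The adjusted p then ran up to 0.336 for COL1A1 and 0.279 for SPARC, both without untreated GFP replicate 2. The part of these markers in the results was not tested.

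The tested genes closest in pattern to each of the 6 were found by the root mean square difference of log2(CPM + 0.5), each gene centred on its own mean, over the 12 libraries. SLC15A3 lay closest to HELZ2 (0.15), PARP9 (0.17) and OAS1 (0.2), and HSH2D to GBP4 (0.16), PARP9 (0.16) and DDX60 (0.17). CACNA1I lay closest to TRIM69 (0.13), PLSCR1 (0.14) and PLEKHA4 (0.14), and TRANK1 to CXCL11, DDX60L and PARP9 (0.18 each). RASGRP3 lay closest to TRIM21 (0.15), SAMHD1 (0.17) and DTX3L (0.18), and MAP2 to CMTR1, SHOX2 and SPSB1 (0.11 each). All of these were higher with IFNB in both lines, from 1.07 for CMTR1 to 6.60 for CXCL11 on the log2 scale in LTR8B cells. The search matched the IFNB rise that chose the 6 genes, so this follows from the search and is no separate result. With a pseudocount of 1 in place of 0.5 the 3 names stayed for MAP2, 1 of 3 stayed for RASGRP3 and 0 of 3 for the other 4, so most of these names depend on the pseudocount. Among the 6 themselves, with the pseudocount of 0.5, HSH2D and TRANK1 were closest (0.21), and MAP2 was farthest from the rest, at 0.86 from CACNA1I. The fitted log2 fold changes of HSH2D and TRANK1 were far apart, at 5.60 and 3.83 in LTR8B cells and 5.68 and 3.86 in GFP cells. The pseudocount weighs on HSH2D, which was near the floor without IFNB. These pairs were not repeated with a pseudocount of 1.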

How the data were processed

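The authors deposited a table of whole-number counts per gene, with 1 column per library. Per the submitters' processing notes, Salmon 0.13.1, DESeq2 1.38.3 and hg38 were used; their roles, their order and the strand setting are not stated in these notes. A second deposited table of normalized values was not used. Counts were fitted with edgeR 4.0.16 in R 4.3.3 (TMM scaling, filterByExpr with a minimum count of 10 and total of 15, robust quasi-likelihood test), with 1 mean for each of the 4 groups over all 12 libraries and Benjamini-Hochberg adjustment over 16393 genes at 0.05. CPM is TMM-scaled counts per 1000000 over the tested genes, and CPM per kb divides it by merged GENCODE release 29 exon length. Counting intervals are exact at 95%. Genes named beside the 6 members were those past the threshold in the lists (up to 4 a list), the nearest neighbours, the 3 most like patterns and SP140; others (SLC15A4, IFIT3, CACNA1G, CACNA1H and single markers) were picked after their values were seen. Counts over the signalling list, and 1 gene of it, are not reported here. The members and lists were chosen with earlier results of these data known. Alternatives were DESeq2 1.42.0, limma-voom (limma 3.58.1), DESeq2 size factors, no filter, a replicate block and leaving out each library. The block was by replicate number across both guides for the guide contrasts, and by number within each guide for the others. On simulated counts with 200 genes changed by a fold of 2 between guides, over 16141 genes, 145 were recovered with IFNB, 140 untreated and 162 in the average, with 11, 4 and 14 false calls. The simulation gave each gene its share of counts pooled over all 12 libraries, with no IFNB effect. It therefore does not give the recovery of genes near the floor in untreated cells, such as SLC15A3, HSH2D and CACNA1I. Library kits had single or dual index adapters, per the labels' protocols, with no assignment, so no batch was tested.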

Additional observations from a re-analysis of the deposited data

How the results depend on the processing

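No setting brought any of the 6 genes past the threshold in a guide contrast. The adjusted p of HSH2D with IFNB, LTR8B over GFP, was 0.247 to 0.535 in the other fits and 0.296 to 0.998 with single libraries left out. Counts of all genes moved more. With DESeq2, 120 genes differed between guides with IFNB, 177 untreated and 590 in the average, against 58, 59 and 351 with edgeR. With no filter these were 260, 325 and 775, and 13 genes differed in response against 0. Same-numbered libraries correlated at 0.0624 to 0.237 in LTR8B cells and 0.126 in GFP cells (deviations from group means). With 2 libraries a group, GFP libraries of the other treatment could give only 0.126 or -0.126. Among LTR8B libraries of the other treatment, each one except untreated replicate 3 correlated best with its own number. The labels do not state pairs, so the main fit took none, and whether the numbers are pairs was not tested. The replicate block was 2 fits. Blocking by number across both guides gave 56, 53 and 181 genes for the guide contrasts. Same-numbered libraries of the 2 guides correlated at -0.101 and -0.0496 untreated and at -0.0657 and -0.142 with IFNB. Blocking by number within each guide gave 4 genes for the difference of responses. For IFNB in LTR8B and GFP cells it gave 1040 and 747, against 737 and 524. Leaving out single libraries gave 21 to 69 genes with IFNB (21 without GFP IFNB replicate 2, 37 without LTR8B IFNB replicate 2), 22 to 94 untreated (22 without untreated GFP replicate 2, 34 without GFP replicate 1, 94 without LTR8B replicate 2), 93 to 461 in the average and 0 to 1 in the difference (1 without untreated GFP replicate 1). In the average there were 178 and 153 without GFP IFNB replicate 1 and 2, and 191 and 93 without untreated GFP replicate 1 and 2. Leaving out single libraries gave 602 to 738 for IFNB in LTR8B cells and 344 to 594 in GFP cells (344 without untreated GFP replicate 1). Signs of small values turned: the MAP2 guide average was 0.0101 with the block and -0.0353 to 0.0233 with libraries left out, and the HSH2D difference was 0.0237 with limma-voom and -0.32 to 0.23 with libraries left out. With libraries left out, SLC15A3 ran from -0.28 to 0.0209 with IFNB, -0.18 to 1.04 untreated, -0.16 to 0.45 in the average and -1.17 to 0.0462 in the difference. CACNA1I ran from -0.19 to 0.10 with IFNB, -1.22 to 0.93 untreated, -0.64 to 0.44 in the average and -0.98 to 1.16 in the difference. RASGRP3 with IFNB ran from -0.0176 to 0.0881 and the TRANK1 difference from -0.12 to 0.0729. The promoter search with 3 bases between the GAAA copies gave 0 of 9 windows, 24.1% of effector windows and 2.86% of all. In the guide average the edgeR block across both guides ended the calls of TMEM132A (adjusted p = 0.125), SPARC (0.151) and COL1A1 (0.212). COL1A1 did not pass with DESeq2 or limma-voom either. Depth limits SLC15A3, HSH2D and CACNA1I in untreated cells, where counts ran from 1 to 7. The cause of these changes was not tested, except that the settings with single libraries left out use fewer samples.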
